A study of Mus musculus with 14 samples.

Results

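The 10 genes described here, Lifr, Osmr, Jak1, Jak2, Stat3, Stat5a, Stat5b, Stat6, Socs2 and Socs3, belong to the cytokine signalling route from receptors through Janus kinases (JAKs) to STAT transcription factors and their SOCS inhibitors, and were followed in mouse plexiform neurofibromas (PNs). They were chosen by symbol, and all 10 were found among the 24062 genes of the count table. PNs are benign tumors of peripheral nerve that form after Schwann cells (SCs) lose Nf1. Bulk RNA-seq was made from 14 frozen tissues: 3 control dorsal root ganglia (DRGs) with nerves from Nf1fl/fl mice, 5 slowly growing PNs and 6 rapidly growing PNs from DhhCre;Nf1fl/fl mice. All mice were on a mixed C57BL/6, I-129 and FVBN background, received no drug and, by the study's bulk RNA-seq methods, were 9 months old, although a legend gives a younger age for the bulk comparison. Every mouse, controls included, carried the floxed Nf1 alleles, and DhhCre deletes them in the SC lineage, so other cell types of the PN kept Nf1. Growth was classed from volumetric MRI over 2 months: fast PNs gained more than 35 mm3 and slow PNs changed by less than 5 mm3. The libraries are called control 1 to 3, slow PN 1 to 5 and fast PN 1 to 6, and held 9596773 to 17594164 counts each.

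Cytokines of the interleukin-6 family bind receptor pairs that contain gp130, LIFR or OSMR. The JAKs bound to these receptors phosphorylate STAT proteins, which dimerize and act on target genes in the nucleus. SOCS proteins are induced by STATs and switch the receptors off, and in nerve the route is known for its part in the response of SCs and neurons to injury. Transcript counts do not measure phosphorylated protein, so the values below are transcript levels alone.

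The tissues differed in their cell content. Summed over 12 markers, skeletal muscle transcripts reached 12392 to 43529 CPM (counts scaled to a common library size) in the controls, 91.7 to 14181 in slow PNs and 434 to 8841 in fast PNs. Summed over 10 markers, fat transcripts reached 4117 to 5955 CPM in the controls, 41.2 to 3335 in slow PNs and 43.5 to 303 in fast PNs, so that every PN was below every control. The 10 SC markers summed to at least 4686 CPM in every library, but the 10 sensory neuron markers were at 34.2 CPM in fast PN 4 and at 1618 to 13681 CPM in the others. Counts over the whole Nf1 gene were 131 to 229 CPM in controls, 224 to 293 CPM in slow PNs and 224 to 276 CPM in fast PNs, not lower in PNs (log2 fold change 0.54, SE 0.16, edgeR adjusted p = 0.0215). Cre removes only the floxed part of the gene in 1 cell lineage, so these whole-gene counts do not check the genotype labels. In bulk tissue, fewer cells of a type and less RNA per cell cannot be told apart, and genotype and the tissue sampled cannot be told apart in PN against control.

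Levels were first set side by side per summed exon length, as TPM (counts scaled by exon length and library size) over the 14 libraries. The length joins the exons of all annotated transcripts of a gene, 9531 bases for Socs2 and 2891 for Socs3. The order between genes depends on that choice. Lifr, a receptor chain for leukemia inhibitory factor, stood highest at 214 ± 122 TPM (SD, n = 14), followed by the kinase gene Jak1 at 189 ± 46.7 TPM. Stat3, the main STAT downstream of gp130, was at 99.1 ± 33.4 TPM. Stat6, which acts downstream of interleukin-4, was at 81.3 ± 9.27 TPM, and the kinase gene Jak2 was at 68.3 ± 16.0 TPM. Osmr, the oncostatin M receptor chain, was at 45.8 ± 18.8 TPM. Stat5b was at 20.7 ± 4.77 TPM, Socs3 at 11.5 ± 6.65 TPM, Stat5a at 9.90 ± 3.66 TPM and Socs2 at 8.32 ± 3.74 TPM. The SD ranges of neighbours in this order overlapped except between Jak1 and Stat3 and between Osmr and Stat5b. The order was not the same in every group. Among control means, Jak1 (159 TPM) was above Lifr (134), and Stat6 (72.8) and Jak2 (63.9) were above Stat3 (58.5). Stat5b (26.0 TPM) was above Osmr (23.3 TPM) there.

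Between PNs and controls, the receptor gene Osmr and the transcription factor gene Stat3 rose and Stat5b fell. These 3 of 10 genes passed an adjusted p of 0.05 in edgeR's quasi-likelihood test, where 26.3% of the 16283 genes tested did so (12.9% higher and 13.4% lower). The share is near the background of these tissues. All 10 genes passed the filter on low counts in each comparison.

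**Figure D1:**
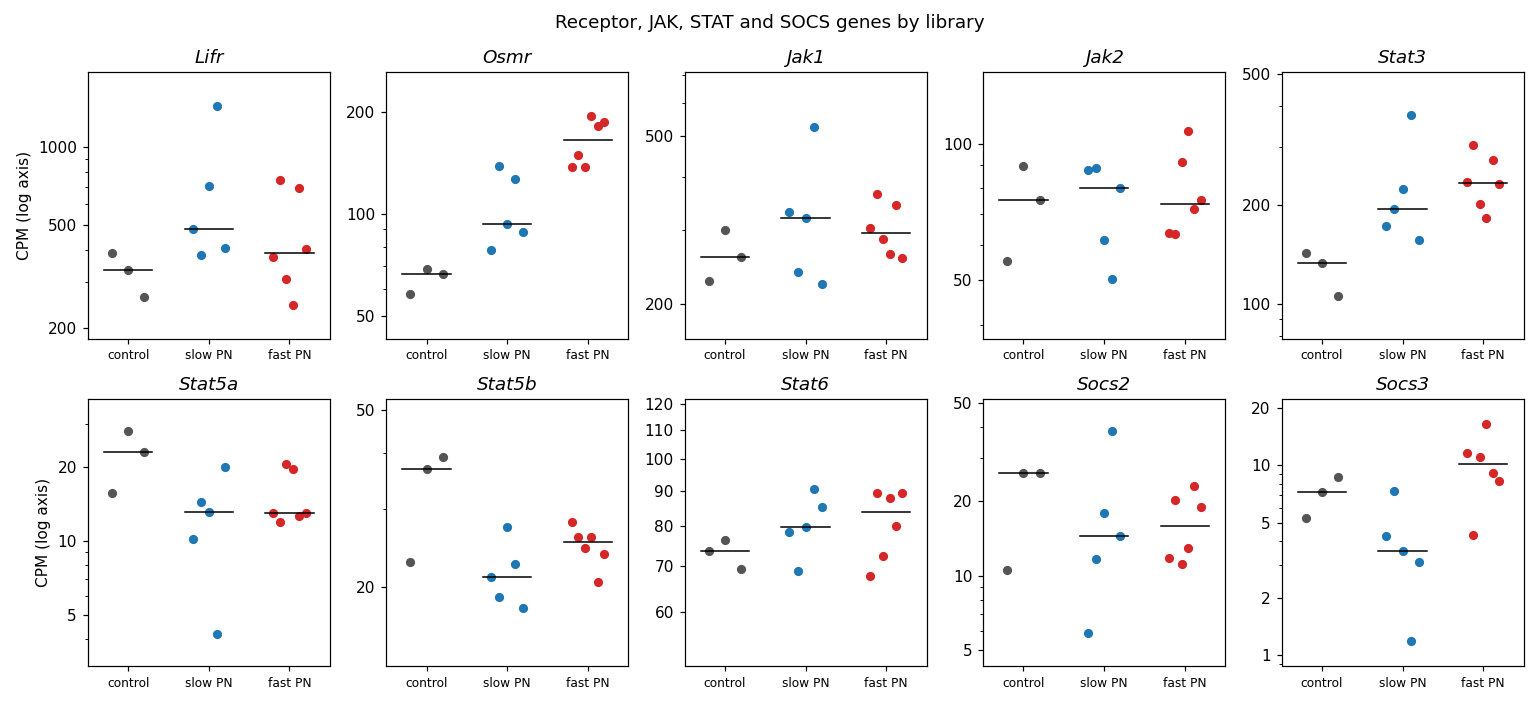
Level of each of the 10 genes in CPM on a log axis, with 1 point per library and a bar at the group median, for control DRGs (n = 3), slow PNs (n = 5) and fast PNs (n = 6). Osmr and Stat3 lay higher in all 11 PNs than in any control, as did 8.18% of genes tested.

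Osmr (chr15:6813577-6874969 in mm10, minus strand) was at 57.8, 68.7 and 66.6 CPM in controls 1 to 3. It was at 78.4, 139, 93.1, 127 and 88.5 CPM in slow PNs 1 to 5, and at 137, 149, 137, 195, 182 and 187 CPM in fast PNs 1 to 6. No PN overlapped the controls, a separation upward that 8.18% of tested genes showed. The rise from 64.4 ± 5.78 (SD, n = 3) to 138 ± 39.7 CPM (SD, n = 11) was 2.14-fold (log2 fold change 1.10, SE 0.27, edgeR adjusted p = 0.00884). An exact two-sided permutation test gave p = 0.00275, the smallest its 364 splits allow.

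Stat3 (chr11:100885098-100939540, minus strand) was at 142, 133 and 106 CPM in the controls. It was at 172, 193, 223, 375 and 156 CPM in the slow PNs and at 234, 303, 200, 182, 273 and 231 CPM in the fast PNs. All 11 PNs were above all controls, as for 8.18% of genes tested, and slow PN 4 was the highest. The rise was 1.82-fold (log2 fold change 0.86, SE 0.25, edgeR adjusted p = 0.0186). The call was lost without control 2 or control 3 (edgeR adjusted p = 0.0649 and 0.116), with log2 fold changes of 0.90 and 0.75. In those fits 14.9% and 12.5% of all genes passed, against 26.3% with all libraries.

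Stat5b (chr11:100780731-100850724, minus strand), which with Stat5a acts downstream of growth hormone and prolactin, was at 22.7, 36.8 and 39.2 CPM in the controls. It was at 17.9 to 27.2 CPM in slow PNs, with a median of 21.1, and at 20.6 to 28.0 CPM in the fast PNs. Control 1 lay among the PNs, and the other controls lay above all of them. The fall was 0.50 on the log2 scale (log2 fold change -0.50, SE 0.17, edgeR adjusted p = 0.0410), and the call was lost without control 2, control 3, slow PN 2, fast PN 3 or fast PN 6, with adjusted p from 0.0502 to 0.265. It was also lost with limma voom (adjusted p = 0.0623) and without the filter on low counts (adjusted p = 0.0606). Stat5a (chr11:100859351-100885169, plus strand) was at 15.7, 28.0 and 23.1 CPM in controls and at 4.20 to 20.6 CPM in PNs (log2 fold change -0.68, SE 0.32, edgeR adjusted p = 0.136). Stat5a and Stat5b are close copies, so reads shared by both may have been split or dropped in counting. Stat3 and Stat5a overlap by 72 exonic bases on opposite strands, which is 0.756% of the Stat3 exons, and whether counting used strand is not given in the sources used here.

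The muscle and fat markers moved with these differences. With both marker scores as covariates, 3.30% of genes and none of the 10 passed edgeR's test in PN against control, with 0 of the 10 at an unadjusted p under 0.05. Osmr then had a log2 fold change of 0.23 (adjusted p = 0.738), Stat3 0.65 (adjusted p = 0.313) and Stat5b -0.40 (adjusted p = 0.440). In fast PNs against controls the same covariates left log2 fold changes of 1.53 for Osmr (adjusted p = 0.565) and 1.03 for Stat3 (adjusted p = 0.792), and in slow PNs 0.21 and 0.29 (adjusted p = 0.955 and 0.935). In those 2 fits 0% of all genes passed, so the lost calls are not particular to these genes. Fibroblast markers, 1875 to 17200 CPM in PNs and 2321 to 4705 CPM in controls, were also highest in fast PN 4, which had the highest Osmr, and lowest in slow PN 4, where Osmr was at 127 CPM. The part of fibroblasts in these levels was not tested.

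**Figure D2:**
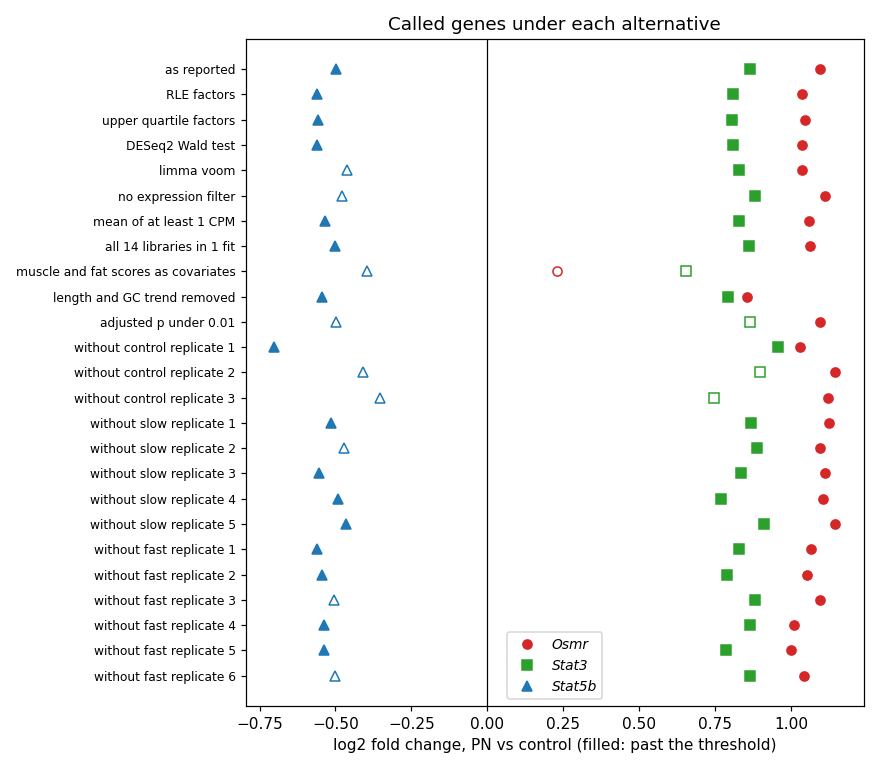
Log2 fold change between PNs and controls for Osmr, Stat3 and Stat5b as reported and under 24 alternatives, where filled symbols passed the threshold. Osmr stayed past it except with muscle and fat scores as covariates, where its log2 fold change was 0.23.

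The other genes did not pass in PN against control. Lifr (chr15:7090614-7197489, plus strand) ranged from 264 to 390 CPM in controls, 384 to 1444 in slow PNs and 246 to 747 in fast PNs (log2 fold change 0.77, 95% confidence interval -0.19 to 1.74). Jak1 (chr4:101152367-101265282, minus strand) had a log2 fold change of 0.26 (-0.21 to 0.74) and Jak2 (chr19:29251828-29313080, plus strand) one of 0.06 (-0.38 to 0.49). Stat6 (chr10:127642986-127660957, plus strand) was the steadiest of the 10, at 67.8 to 90.4 CPM in all libraries, with a log2 fold change of 0.14 (-0.10 to 0.39). Socs2 (chr10:95385362-95417180, minus strand), an inhibitor of growth hormone signalling, had -0.30 (-1.19 to 0.59). Socs3 (chr11:117966079-117970047, minus strand), the SOCS protein that binds gp130, had 0.06 (-1.14 to 1.25). The wide intervals of Lifr, Socs2 and Socs3 leave room for changes of over 1 on the log2 scale.

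Slow and fast PNs were each set against the same 3 controls, so the comparisons are not independent. In slow PNs against controls, 0 of the 10 genes passed edgeR's test, where 11.3% of 15714 genes did. Of the 10, 3 had an unadjusted p under 0.05 (Stat3, Stat5b and Osmr), as did 4765 of the 15714 genes tested, a like share. DESeq2 called Osmr alone of the 10 and limma voom called 0. With all 14 libraries in 1 fit, Stat3 (0.82, adjusted p = 0.0491), Stat5b (-0.61, adjusted p = 0.0332) and Osmr (0.71, adjusted p = 0.0267) passed. Of all genes, DESeq2 called 22.5%, limma voom 11.7% and the fit of all 14 libraries 20.1%. Stat3 had a log2 fold change of 0.77 (SE 0.30, edgeR adjusted p = 0.127) and Osmr 0.66 (SE 0.22, adjusted p = 0.0863). Both lay above all controls in all 5 slow PNs, as did 11% of tested genes. Without control 1, Stat5b passed, with a log2 fold change of -0.87 (adjusted p = 0.0284), where 15.3% of all genes did.

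In fast PNs against controls, Osmr rose 2.46-fold (log2 fold change 1.30, SE 0.17, edgeR adjusted p = 0.000491) and Stat3 rose 1.80-fold (0.85, SE 0.17, adjusted p = 0.00517). These 2 of 10 compare with 31.4% of 16037 genes tested, and with 14.8% that rose. Neither overlapped the controls, and 17.2% of genes lay wholly above them. Without control 1, Stat5a and Stat5b also passed, with log2 fold changes of -0.82 and -0.69 (adjusted p = 0.0409 and 0.00740), where 31.9% of all genes did.

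**Figure D3:**
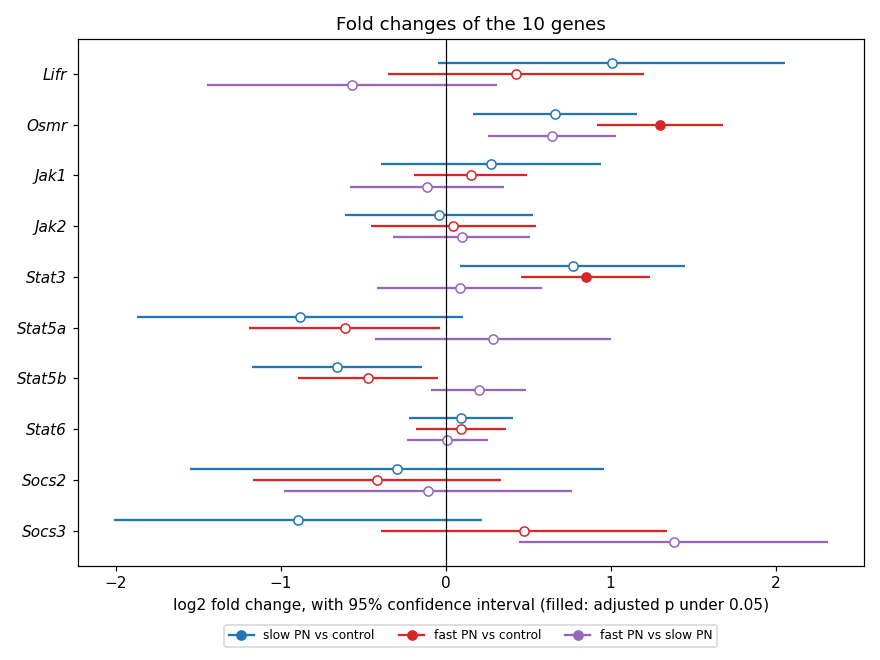
Log2 fold change of each gene with its 95% confidence interval for slow PNs against controls, fast PNs against controls and fast against slow PNs, where filled points have an edgeR adjusted p under 0.05. Osmr and Stat3 in fast PNs against controls are the filled points.

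Fast and slow PNs, compared directly, differed most in Socs3 and Osmr among the 10, but 0 of 10 passed edgeR's test, where 1.27% of 15465 genes did. Of the 10, these 2 had an unadjusted p under 0.05, as did 3155 of the 15465 genes tested, a like share. Socs3 was at 4.26, 7.29, 3.55, 1.19 and 3.09 CPM in slow PNs 1 to 5 and at 11.6, 4.29, 11.1, 16.6, 9.17 and 8.26 CPM in fast PNs 1 to 6. Of 6 fast PNs, 5 were above every slow PN, and fast PN 2 was the exception. The Socs3 levels of slow PNs 1 to 5 rest on 56, 97, 35, 13 and 32 counts. The log2 fold change was 1.38 (95% confidence interval 0.45 to 2.32, edgeR adjusted p = 0.101). For Osmr, 4 of 6 fast PNs were above every slow PN (log2 fold change 0.64, 0.26 to 1.03, adjusted p = 0.0774). How many of all genes separated as far as Socs3 or Osmr was not counted. Both passed with DESeq2 (adjusted p = 0.0235 and 0.0154), which called 10.2% of all genes. With limma voom, 0 of the 10 and 0.22% of all genes passed. Both passed with edgeR without slow PN 2 (adjusted p = 0.0331 and 0.0255), where 7.65% of all genes did. Stat3 did not differ beyond its spread (log2 fold change 0.08, -0.42 to 0.59), nor did Stat6 (0.01, -0.24 to 0.25).

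Slow PN 4 had the highest level of 5 of the 10 genes (Stat3, Stat6, Jak1, Socs2 and Lifr) and the lowest of 3 (Stat5a, Jak2 and Socs3). Over the 10658 genes whose log2 CPM averaged 3 or more, it was highest for 29.4% and lowest for 18.5%, so it stood apart across genes at large. It also had the highest sensory neuron sum, 13681 CPM, and the lowest macrophage sum, 48.7 CPM. Fast PN 4, which was highest for 15.6% and lowest for 20.9% of those genes, had 34.2 CPM of neuron markers, the highest macrophage sum of 827 CPM, the lowest Lifr (246 CPM) and the highest Osmr, Jak2 and Socs3 (195, 107 and 16.6 CPM). The part of neurons and macrophages in these levels was not tested.

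**Figure D4:**
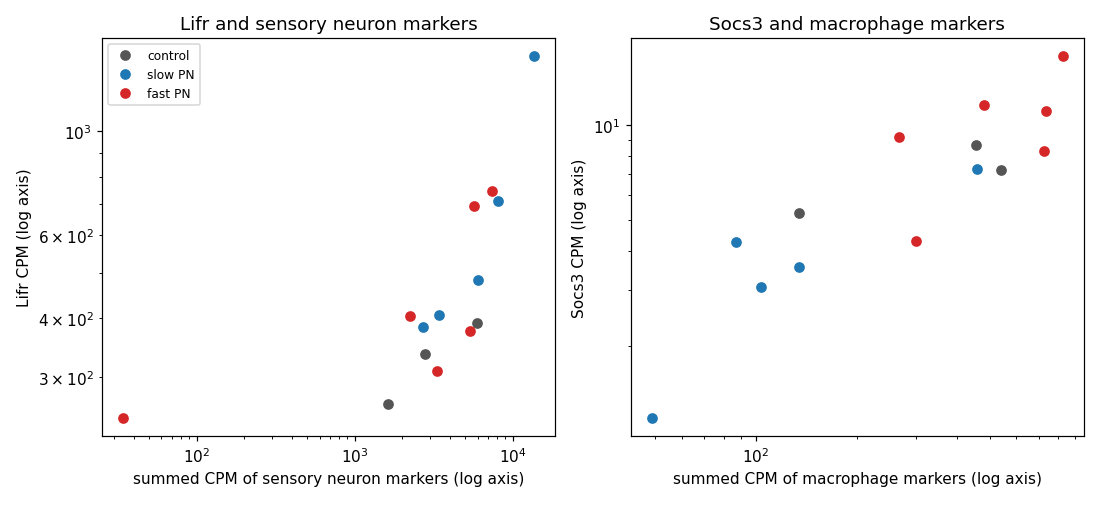
Lifr against summed sensory neuron markers and Socs3 against summed macrophage markers, in CPM on log axes, with 1 point per library. Lifr was highest in slow PN 4 (1444 CPM), which had the highest neuron sum, and Socs3 was highest in fast PN 4 (16.6 CPM), which had the highest macrophage sum. Fast PN 4 also had the highest fibroblast sum (17200 CPM) and slow PN 4 the lowest (1875 CPM).

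Promoter sequence was examined because STAT dimers bind the palindrome TTCNNNGAA. The 250 bases before the RefSeq start (GRCm38.p6) were available for 9 of the 10 genes, in 12 windows. Every window of Socs3, Osmr, Lifr and Stat5a lies wholly within the gene bounds given above. For these genes, the bases before the annotated gene start were not searched. Among the 12 windows, that of Socs3 alone held the motif, where 7.02% of 32851 such windows of all genes do. Its match, TTCTTAGAA, spans bases 154 to 146 before the start. The stricter TTCCNGGAA was in 0 of the 9 genes and in 0.913% of all windows. Both motifs read the same on both strands, and every TTCCNGGAA is also a TTCNNNGAA. The windows of Socs3 (chr11:117969367-117969616, minus strand), which holds the match, and of the risen genes Stat3 (chr11:100939541-100939790, minus strand) and Osmr (chr15:6874314-6874563, minus strand), which do not, are given 5′ to 3′ with the motif in capitals.
Socs3: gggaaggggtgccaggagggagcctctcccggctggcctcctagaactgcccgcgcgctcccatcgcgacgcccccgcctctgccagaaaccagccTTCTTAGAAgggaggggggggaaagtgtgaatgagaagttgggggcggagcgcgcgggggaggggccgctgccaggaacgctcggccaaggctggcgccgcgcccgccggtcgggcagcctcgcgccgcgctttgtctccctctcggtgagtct
Stat3: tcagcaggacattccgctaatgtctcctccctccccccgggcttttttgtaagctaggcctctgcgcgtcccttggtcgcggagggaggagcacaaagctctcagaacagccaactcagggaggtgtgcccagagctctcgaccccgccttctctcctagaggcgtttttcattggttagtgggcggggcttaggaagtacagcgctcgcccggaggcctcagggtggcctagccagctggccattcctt
Osmr: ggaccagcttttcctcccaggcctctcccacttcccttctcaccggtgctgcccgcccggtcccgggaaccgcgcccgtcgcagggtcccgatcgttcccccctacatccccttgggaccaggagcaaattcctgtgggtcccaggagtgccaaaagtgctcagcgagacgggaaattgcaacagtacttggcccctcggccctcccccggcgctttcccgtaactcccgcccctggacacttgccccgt
The match is a description of letters, and STAT binding there was not measured.

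Profiles were compared with 10657 candidate genes whose log2 CPM averaged 3 or more. Among these, the gene most like Stat3 over the 14 libraries was Arrb1, at a root mean square distance of 0.10 on the log2 scale. Prkx (0.12) and Tmed8 (0.13) followed. Nearest to Socs3 were Adcy7 (0.31), Nfkbiz (0.34) and Lrrk1 (0.36). Stat3 itself varied with an SD of 0.49 and Socs3 with one of 0.93, so the Stat3 neighbours were the closer.

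Calls of other genes of the pathway are read against the same background: in PN against control, 12.9% of all genes tested rose and 13.4% fell. With muscle and fat scores as covariates, 44 of 48 calls tried for these genes lost the call in the same direction and 3 changed sign, and Cebpb in PN against control kept its call. With these covariates 3.30% of all genes passed in PN against control and 0% in each other comparison. A lost call therefore says little about a single gene. Fold changes with the scores are given below for most of the genes named, though not for every comparison. Upstream of the 10 genes, 1 of 7 other receptor genes of the gp130 family rose in PNs. Il6st, which encodes gp130 itself, was at 395, 345 and 327 CPM in the controls, 564, 886, 676, 1037 and 582 CPM in the slow PNs and 901 to 957 CPM in the fast PNs. All PNs lay above all controls, as for 8.18% of genes tested (log2 fold change 1.25, SE 0.21, edgeR adjusted p = 0.000673). It passed in slow PNs (1.03, adjusted p = 0.0365) and in fast PNs (1.34, adjusted p = 9.19e-05) against the same controls. The slow call was lost without control 2, control 3, slow PN 2 or slow PN 3 (adjusted p from 0.0623 to 0.162) and with the length and GC trend removed (0.76, adjusted p = 0.109). With muscle and fat scores, Il6st had a log2 fold change of 0.66 in PN against control (adjusted p = 0.213). It had 0.48 in slow PNs (adjusted p = 0.912) and 1.155 in fast PNs (adjusted p = 0.587).

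Of 15 ligand genes, 7 passed the filter in PN against control. Lif, the ligand of LIFR, was at 5.36, 1.94 and 1.16 CPM in controls and 5.77 to 22.3 CPM in fast PNs (1.92, SE 0.60, adjusted p = 0.0365). That call was lost without control 2, control 3, fast PN 3 or fast PN 6 (adjusted p from 0.0559 to 0.130) and with limma voom (adjusted p = 0.0877). The cardiotrophin gene Ctf1 was near 1 CPM and fell in PNs (-1.17, adjusted p = 0.0419), a call that was lost in 9 of 14 cases with 1 library left out (adjusted p from 0.0505 to 0.261), without the filter on low counts (adjusted p = 0.0578) and with the length and GC trend removed (-0.64, adjusted p = 0.289). Lep, the fat hormone leptin, fell in fast PNs, from 5.50 to 28.3 CPM in controls to at most 0.44 CPM, beside the fat marker sums given above. Its log2 fold change was -6.88, and -4.72 with the scores (adjusted p = 0.927). With the scores, Lif had 1.61 in fast PNs (adjusted p = 0.923) and Ctf1 had -1.01 in all PNs (adjusted p = 0.430).

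Of 6 other receptor genes that signal through JAKs, Epor and Il2rg fell in PNs and none rose, where 13.4% of all genes fell. The erythropoietin receptor gene Epor averaged 3.04 ± 2.75 CPM in controls and under 1 CPM in both PN groups (log2 fold change -2.68, adjusted p = 0.00742). Without control 3 its log2 fold change was -1.66 and the call was lost (adjusted p = 0.174). Il2rg, the common cytokine receptor chain of lymphocytes, was at 4.06, 138 and 102 CPM in the controls (-2.24, adjusted p = 0.0463), a call lost in 9 of 14 cases (adjusted p from 0.0618 to 0.268), with limma voom (adjusted p = 0.234), without the filter on low counts (0.0515) and with the length and GC trend removed (0.0946). With the scores, Epor had a log2 fold change of -0.68 (adjusted p = 0.768) and Il2rg one of -2.82 (adjusted p = 0.36). The growth hormone receptor gene Ghr fell in fast PNs, from 233 ± 50.1 (SD, n = 3) to 60.4 ± 16.6 CPM (SD, n = 6; log2 fold change -2.00, edgeR adjusted p = 0.000249), and had -0.28 with the scores (adjusted p = 0.966).

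Among 6 other SOCS genes, Socs5 and Socs4 rose and Cish fell in PNs, where 26.3% of all genes passed. Cish, a feedback inhibitor induced by STAT5, was at 15.8, 14.5 and 29.5 CPM in controls, 2.99 to 15.8 CPM in slow PNs and 3.44 to 5.62 CPM in fast PNs. Its log2 fold change was -1.67 (SE 0.43, edgeR adjusted p = 0.0109) in all PNs and -2.32 (SE 0.26, adjusted p = 0.000225) in fast PNs, and the first was lost without control 3 (adjusted p = 0.116). Socs5 averaged 39.0 ± 9.88 CPM in controls, 63.2 ± 13.9 in slow PNs and 101 ± 15.1 in fast PNs (1.11, adjusted p = 0.0105), and lost its call without control 2 or control 3 (adjusted p = 0.0646 to 0.0730). Socs4 had a log2 fold change of 0.40 (adjusted p = 0.0349), lost in 6 of 14 cases (adjusted p from 0.0511 to 0.211), with RLE or upper quartile factors (adjusted p = 0.0530 and 0.0619) and with the length and GC trend removed (0.12, adjusted p = 0.597). With the muscle and fat scores, the log2 fold change in all PNs was -0.18 for Cish (adjusted p = 0.889) and 0.17 for Socs5 (adjusted p = 0.778). It was 0.26 for Socs4 (adjusted p = 0.526). In fast PNs, Cish had -1.01 with the scores (adjusted p = 0.91).

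Of 8 other restraining genes, the PIAS genes Pias1 (0.48, adjusted p = 0.00590) and Pias3 (0.69, adjusted p = 0.0132) rose. All PNs lay above all controls for both, as for 8.18% of genes tested. Pias1 had a log2 fold change of 0.24 with the length and GC trend removed (adjusted p = 0.194). With the scores, Pias1 had 0.35 (adjusted p = 0.316) and Pias3 0.33 (adjusted p = 0.529). Pias3 lost its call without control 1 or control 2 (adjusted p = 0.0507 to 0.0513). Of 5 other STAT and JAK genes, Stat4, a STAT of lymphocytes, was at 3.02, 22.7 and 19.3 CPM in the controls and 0.64 to 8.85 CPM in PNs (-1.98, adjusted p = 0.0263, and 0.132 to 0.173 without control 2 or control 3). Stat2, which serves type I interferon signalling, rose in fast PNs (0.78, adjusted p = 0.00655), and had 0.38 with the scores (adjusted p = 0.956). Stat4 in all PNs had -2.08 with the scores (adjusted p = 0.383).

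**Figure D5:**
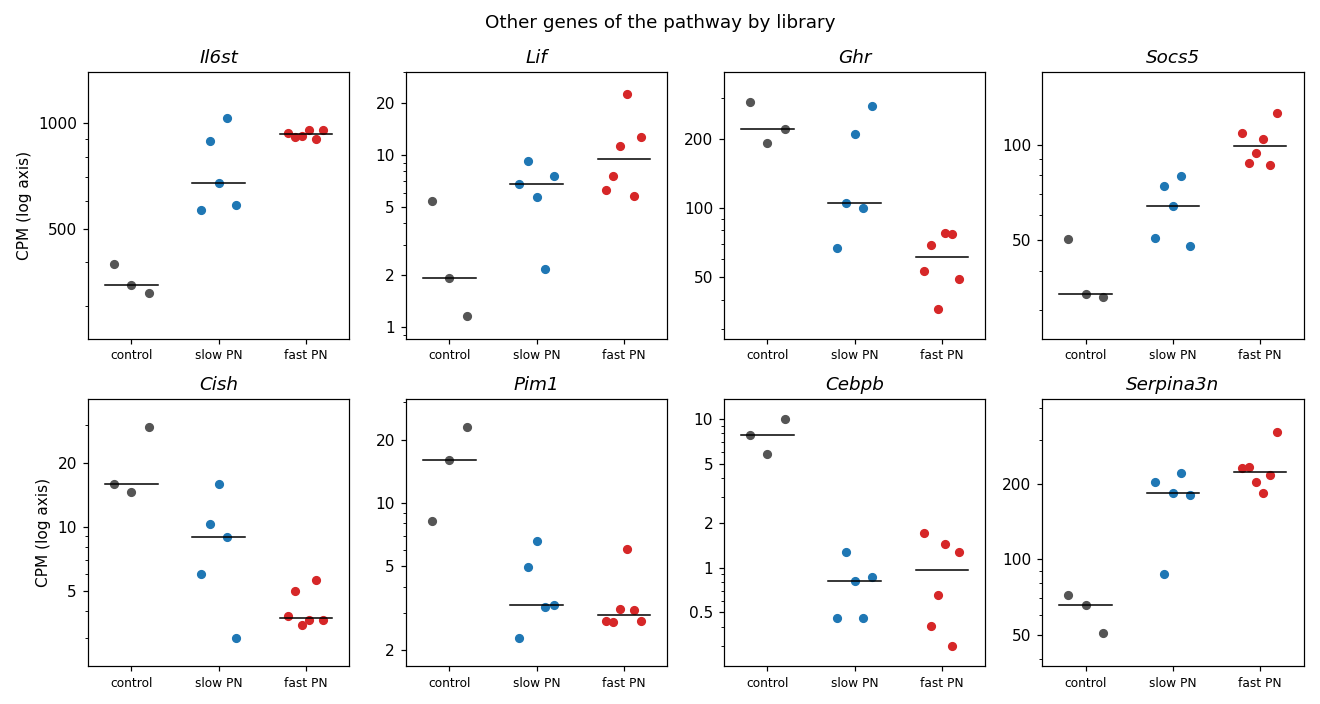
Level of 8 other genes of the pathway in CPM on log axes, with 1 point per library and a bar at the group median. Il6st and Serpina3n lay above all controls in every PN, as did 8.18% of genes tested. Pim1 and Cebpb lay below all controls in every PN, for which the share of all genes is not given.

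Genes known to respond to STAT3 moved in both directions. Of 21 tested in PN against control, 3 rose (Serpina3n, Gfap and Ccnd1) and 5 fell (Cebpb, Pim1, Vegfa, Lrg1 and Junb), where 12.9% of all genes rose and 13.4% fell. The median log2 fold change of the 21 was -0.91 against 0.10 over all genes. Serpina3n, an acute phase protease inhibitor, was at 71.6, 65.4 and 50.6 CPM in controls and 86.9 to 323 CPM in PNs (1.72, SE 0.29, adjusted p = 0.000655). Cebpb, a transcription factor gene of the acute phase and of fat cells, averaged 7.88 ± 2.11 CPM (SD, n = 3) in controls and was at 0.30 to 1.72 CPM in PNs (-3.14, SE 0.40, adjusted p = 7.79e-05). The kinase gene Pim1 fell by 2.08 on the log2 scale (SE 0.32, adjusted p = 0.000328), and Vegfa, the endothelial growth factor gene, by 1.25 (SE 0.28, adjusted p = 0.00503). With muscle and fat scores as covariates, Cebpb kept its call in PN against control (-3.78, adjusted p = 0.0336) but not in slow PNs (-3.14, adjusted p = 0.372, against -3.36 without the scores) or fast PNs (-3.57, adjusted p = 0.799, against -3.06), where no gene passed. Serpina3n (1.24, adjusted p = 0.0666), Pim1 (-1.33, adjusted p = 0.232) and Vegfa (-0.48, adjusted p = 0.459) lost theirs.

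In fast against slow PNs, 2 of 20 such genes passed, both higher, where 1.27% of all genes passed, and they were named after their values were seen. Gfap, an intermediate filament gene of glia, was at 2.13 to 7.29 CPM in slow PNs and 17.6 to 49.4 CPM in fast PNs (2.47, SE 0.37, edgeR adjusted p = 0.0317). Timp1, a metalloproteinase inhibitor gene, averaged 6.24 ± 7.05 (SD, n = 5) and 39.1 ± 13.7 CPM (SD, n = 6; 2.63, edgeR adjusted p = 0.0485). Prlr, the prolactin receptor gene among the other receptors, was lower in fast PNs (-0.81, SE 0.16, adjusted p = 0.0449). Leaving out 1 of the 11 libraries ended the Gfap call in 7 cases (adjusted p from 0.0609 to 0.121) and the Timp1 and Prlr calls in 8 each (adjusted p from 0.0598 to 0.137 and from 0.0603 to 0.129). The Timp1 call was also lost with RLE factors (adjusted p = 0.0519), and the Prlr call with limma voom (0.0512) and with the length and GC trend removed (0.0607). Both were lost with upper quartile factors (0.0589 for Timp1 and 0.0570 for Prlr) and without the filter on low counts (0.0537 and 0.0534). With the scores, where 0% of all genes passed, the log2 fold change was 2.02 for Gfap (adjusted p = 0.253), 2.98 for Timp1 (adjusted p = 0.205) and -0.53 for Prlr (adjusted p = 0.381).

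Of 7 STAT5 response genes, the cell cycle gene Ccnd1 rose (log2 fold change 2.60, SE 0.87, adjusted p = 0.0401) and Cish fell in PNs. Ccnd1 lost its call in 9 of 14 cases (adjusted p from 0.0525 to 0.145), but in fast PNs it was at 340 to 846 CPM against 44.7 to 75.1 CPM in controls (3.12, SE 0.37, adjusted p = 0.000266). The survival gene Bcl2l1 rose in fast PNs (1.04, adjusted p = 0.0122, and 0.0502 to 0.0548 without control 2 or control 3), and lost its call with all 14 libraries in 1 fit (adjusted p = 0.0732). With the scores, Ccnd1 in all PNs and Bcl2l1 in fast PNs changed sign, to -0.40 and -0.49 (adjusted p = 0.863 and 0.946). Ccnd1 in fast PNs had 2.935 with the scores (adjusted p = 0.59). Of 13 STAT6 response genes, 4 fell in PNs and none rose, where 13.4% of all genes fell: Fcer2a, a receptor gene of B cells (-3.14, adjusted p = 0.00219), Klf4 (-1.61, adjusted p = 0.00299), the chemokine gene Ccl22 (-2.77, adjusted p = 0.0280) and Pparg, a regulator of fat cells (-2.96, adjusted p = 0.0384). Fcer2a was at 1.21, 31.2 and 32.1 CPM in the controls and 0.95 to 8.28 CPM in PNs, and Ccl22 at 0.26, 37.6 and 15.3 CPM in the controls and 0.30 to 6.36 CPM in PNs. Control 1 was thus below all PNs for Ccl22 and within their range for Fcer2a, and controls 2 and 3 were above all PNs for both, as they were for Il2rg and Stat4. Ccl22 lost its call without control 2 (log2 fold change -1.58, adjusted p = 0.335) or control 3 (-2.86, adjusted p = 0.0769). Pparg lost its call in 7 of 14 cases (adjusted p from 0.0504 to 0.146) and with the length and GC trend removed (adjusted p = 0.0598). With limma voom, Fcer2a and Ccl22 lost theirs (adjusted p = 0.0601 and 0.405), as did Ccnd1 in all PNs (adjusted p = 0.0680). With the scores, Pparg had a log2 fold change of -0.39 (adjusted p = 0.706) and Klf4 one of -1.93 (adjusted p = 0.0609). Fcer2a had -1.63 (adjusted p = 0.488) and Ccl22 had -5.25 (adjusted p = 0.191).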

How the data were processed

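Raw counts per gene, deposited by the authors, were used for all 14 libraries. Per the labels and the study's methods, libraries came from total RNA after amplification (Ovation v2 kit), reads were aligned to mm10 with TopHat2 (2.0.9) and counted with featureCounts (1.5.2), and the submitters' processing notes also name CASAVA (1.4), FastQC (0.11.0) and edgeR (3.16.5). A second deposited table of normalized log2 values was not used.

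Genes were filtered with filterByExpr, scaled by TMM and tested with the quasi-likelihood test of edgeR (4.0.16, R 4.3.3), with Benjamini-Hochberg adjustment over all genes tested and a threshold of 0.05. Each comparison was fitted on its own libraries. CPM used TMM-scaled library sizes. TPM used summed exon lengths from GENCODE M21, matched by symbol for 22750 genes. Alternatives used DESeq2 (1.42.0), limma voom (3.58.1), other scalings and filters, marker scores as covariates, and each library left out in turn. Intervals of fold changes are approximate, from the test statistic. Amplification carries no molecular identifiers, and ribosomal Rn45s took up to 18.1% of counts. The labels do not say that each library came from a separate animal, so p-values measure the spread between these samples.

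The 10 genes are all named. From each other list, up to 4 called genes with the lowest p in PN against control are named, and for Stat3 and Socs3 the 3 nearest profiles; 1 gene that the rule names is not reported here. Members and lists were chosen with earlier results of these data known. Gene names beyond that rule are counts of 5 or fewer spelled out.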

Additional observations from a re-analysis of the deposited data

How the results depend on the processing

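No paired analysis was possible because the labels give the groups no shared replicate numbers. The share of all genes that passed in the same fit is given in brackets. In PN against control, 3 of the 10 genes passed (26.3%). Of the 10, 0 passed with muscle and fat scores (3.30%) and 1 at an adjusted p under 0.01 (13.4%). With 1 library left out, 1 to 3 passed (12.5% to 29.4%). In slow PNs against controls, 0 passed (11.3%). Of the 10, 1 passed with DESeq2 (22.5%) and 3 with all 14 libraries in 1 fit (20.1%). With 1 library left out, 0 to 1 passed (3.74% to 15.3%). In fast PNs against controls, 2 passed (31.4%). With muscle and fat scores 0 did (Osmr 1.53 and Stat3 1.03 on the log2 scale, with 0 of 16037 genes passing). With 1 library left out, 2 to 4 passed (20.4% to 32.1%). In fast against slow PNs, 0 passed (1.27%). Of the 10, 2 passed with DESeq2 (10.2%) and 0 to 2 with 1 library left out (0.0128% to 7.65%). The cause of these changes was not tested. With those scores, 538 genes of all tested passed in PN against control and 0 in the other comparisons.

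Of 820 values for the 10 genes under alternatives, 755 kept direction and side of the threshold, 16 lost a call, 11 gained one and 38 changed sign, none of these from a called value. Jak2 in PN against control was -0.00098 with RLE factors, -0.00073 with DESeq2, -0.090 with muscle and fat scores, -0.15 with the length and GC trend removed, and -0.11 to 0.23 with 1 library left out. Socs3 in PN against control was -0.0048 with RLE factors, -0.0065 with DESeq2, -0.14 with limma voom, -0.10 with all 14 libraries and -1.46 with the scores. In slow PNs, Jak2 was 0.0031 with all 14 libraries and 0.13 with the scores. In fast PNs, Socs2 was 0.38 with the scores and Jak2 -0.10 with the trend removed. In fast against slow PNs, Stat6 was -0.011 with RLE factors or DESeq2 and -0.014 with the scores, Stat3 was -0.12 with the scores and Socs2 0.13 with limma voom. With the scores, Ccnd1 in PNs was -0.40, and Bcl2l1 and Pparg in fast PNs were -0.49 and 1.08. Of the 48 calls of other genes, 44 lost the call with the scores and kept direction, 3 (those) changed sign, and Cebpb in PN against control kept its call. With 1 library left out, Jak2 ran from -0.21 to 0.14 in slow PNs and from -0.13 to 0.22 in fast PNs, and in fast against slow PNs Stat3 ran from -0.0077 to 0.35, Stat6 from -0.041 to 0.056, Jak1 from -0.21 to 0.12, Jak2 from -0.026 to 0.19 and Socs2 from -0.30 to 0.39. Socs3 in PN against control ran from -0.15 to 0.23.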
